A study of Mus musculus with 26 samples.

Results

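The regions described here were bound by the cohesin subunit SMC3 in myoblasts, were still called in myotubes, and had no SMC3 peak in myotubes after knockdown of the DRR enhancer RNA. They were chosen by the peak calls themselves: peaks of the 6 SMC3 lists on chromosomes 1 to 19 and X were merged where they overlapped by at least 1 bp. A merged region was kept when it was under 3000 bp wide, was called in both myoblast and both myotube lists, and was called in neither siDRR list. This left 544 of 43783 merged regions. SMC3 calls and ranks therefore describe the set and cannot be tested on it, while the ATAC-seq and ChIRP-seq lists were not used in the choice.

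All libraries came from C2C12, a mouse myoblast line that grows in 20% serum and differentiates into multinucleate myotubes in 2% horse serum. SMC3 ChIP-seq covered myotubes transfected with siDRR, myotubes and myoblasts. ATAC-seq, which marks accessible chromatin, covered myotubes transfected with siDRR, siSmc3 or a control siRNA, and ChIRP-seq pulled down DRR RNA from myotubes with probe pool 1 or probe pool 2. Every one of these 8 groups had 2 libraries and the labels name no separate cultures, which leaves p-values that measure only the spread between those libraries, possibly a technical one. For the myotube SMC3 libraries no transfection is recorded in the labels, which means that an effect of transfection itself and an effect of the siRNA target cannot be told apart in those lists. How far DRR or Smc3 RNA fell in the knockdowns was not analysed here.

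Cohesin is a ring of SMC1, SMC3, RAD21 and a STAG subunit that extrudes loops of chromatin and holds sister chromatids together. Much of it stops at sites bound by CTCF, and a smaller part sits at active promoters and enhancers, where it is loaded with the help of NIPBL. DRR is the distal regulatory region upstream of Myod1, the gene of a master regulator of muscle differentiation, and the enhancer RNA made from it has been linked to cohesin at a gene on another chromosome.

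Of 12237 regions under 3000 bp that were called in both myotube and both myoblast lists, the 544 missing from both siDRR lists made up 4.45%. Another 5067 were called in 1 siDRR list (41.4%) and 6626 in both (54.1%), and the regions called in both are those of all 6 SMC3 lists. Nearly all of the drop-out lay in siDRR replicate 1, which missed 5537 of the 12237 regions, while siDRR replicate 2 missed 618. The lists differed in length in the same direction: siDRR replicates 1 and 2 held 8384 and 23196 peaks, against 15056 and 26765 in myotubes and 30955 and 33154 in myoblasts. Without siDRR replicate 1 the rule gave 618 regions, without siDRR replicate 2 it gave 5542, and without myotube replicate 1 it gave 2131. Of the 2 siDRR lists, replicate 2 thus limits the group more, and the call in myotube replicate 1 limits it too. The list of siDRR replicate 2 is longer than that of myotube replicate 1, in which all 544 were called. It is shorter than the list of myotube replicate 2 and both myoblast lists. How far list length accounts for the missing calls was not tested.

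Opposite patterns were counted too, with no reading of their number against the 544, since they need a call in the shortest list and none in longer ones. Regions called in both siDRR and both myoblast lists and in neither myotube list numbered 16, and regions called in both siDRR and both myotube lists and in neither myoblast list numbered 15. Apart from the 544, a further 312 regions under 3000 bp were called in both myotube lists, in neither siDRR list and not in both myoblast lists, and 154 of these were in neither myoblast list.

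In all 4 lists that held them, the 544 regions ranked lower in the median than the regions that kept a siDRR call. By rank percentile, where 100 is the best-scoring peak of a list, their median was 23.1 in myotube replicate 1 and 28.9 in myotube replicate 2. In myoblasts their medians were 48.0 and 46.4 in replicates 1 and 2. Regions called in 1 siDRR list stood at medians of 41.7 and 61.9 in the same myotube lists, and regions of all 6 lists at 70.0 and 83.0. In myoblasts those sets stood at 68.0 and 68.1 for 1 siDRR list, and at 84.6 and 85.2 for all 6 lists. The range was nonetheless wide, with single members at percentile 95.9 in myotube replicate 1 and 94.4 in myoblast replicate 2, and 65 and 79 of the 544 lay above percentile 50 in myotube replicates 1 and 2.

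**Figure D1:**
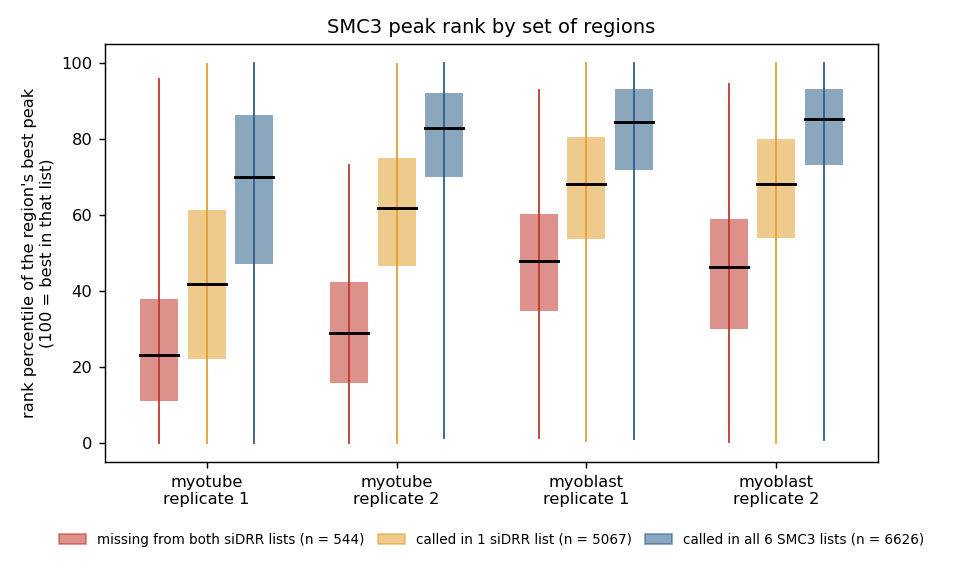
Rank percentile (y axis, 100 is the best peak of a list) of SMC3 regions in the 4 lists that the rule required, with boxes for the middle 50% of regions, black lines for medians and thin lines for the full range. Regions missing from both siDRR lists (red) have the lowest median in each list, at 23.1 and 28.9 in myotubes and 48.0 and 46.4 in myoblasts.

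The deposited peak scores show how near the calling limit these sites lay. The lowest score in the myotube lists was 50.01, and the members had median scores of 70.0 and 87.4 in myotube replicates 1 and 2, against 153 and 436 for the regions of all 6 lists. In myoblasts, where the lowest score was 50, members had median scores of 144 and 136, against 417 and 471. The scores are the authors' and are read within a list only. In myotube replicate 1, 91 members ranked among the best 8384 peaks, which is the length of the siDRR replicate 1 list. In myotube replicate 2, 440 members ranked among the best 23196, the length of the siDRR replicate 2 list, and 80 members did so in both. When all 6 lists were shortened to 8384 peaks, 86 regions met the rule. These were chosen anew from the shortened lists and are not a remainder of the 544.

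Within fixed bands of the mean myotube rank, membership thinned out steadily. It took in 186 of 444 regions (41.9%) below percentile 20, 249 of 1948 (12.8%) between 20 and 40, and 98 of 3246 (3.02%) between 40 and 60. Between 60 and 80 there were 11 of 3513 (0.313%), and above 80 there was none among 3086 regions, although 369 of those were called in 1 siDRR list only. The rank used here comes from the lists that chose the members, so these shares are a description.

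**Figure D2:**
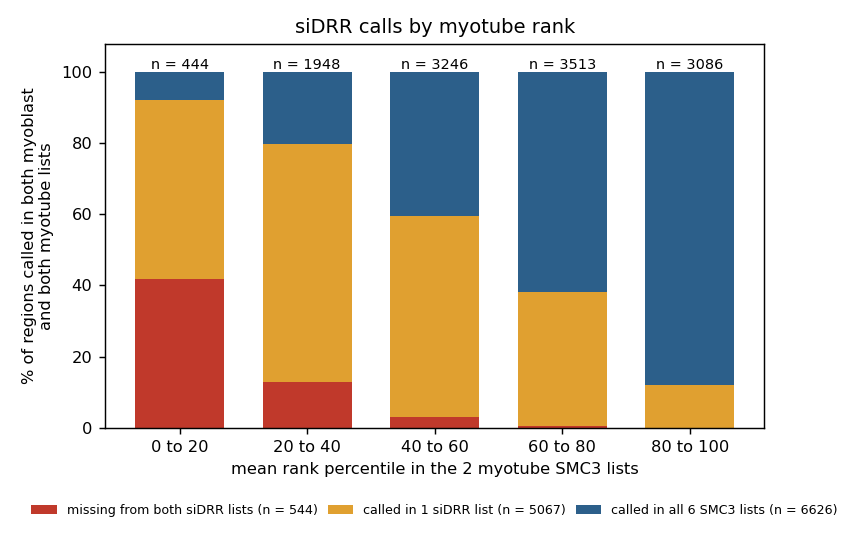
Share of the 12237 regions called in both myotube and both myoblast lists (y axis, %) by number of siDRR lists that called them, in 5 bands of mean myotube rank percentile (x axis), with the number of regions above each bar. The red part, regions missing from both siDRR lists, is 41.9% in the lowest band and 0 in the highest.

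The member with the highest mean rank over the 4 lists lay on chromosome X (7353475 to 7354585, mm9). It stood at percentiles of 67.1 and 64.1 in myotube replicates 1 and 2 and at 78.2 and 75.03 in myoblast replicates 1 and 2. The nearest siDRR peaks were 96048 bp away in replicate 1 and 82902 bp away in replicate 2. This site was thus above the middle of all 4 lists and had no siDRR peak nearby.

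The second, on chromosome 4 (63140643 to 63141963), had percentiles of 82.8 and 67.9 in myotubes and 63.3 and 64.5 in myoblasts. Its nearest siDRR peak was 13836 bp away, in replicate 2. The third, again on chromosome X (156607635 to 156608747), had 51.8 and 62.1 in myotubes and 81.9 and 70.7 in myoblasts. All 3 sites were above the middle of each list. The fourth, on chromosome 2 (180166624 to 180167963), varied more between libraries of a group and stood at 90.5 and 52.4 in myotubes and at 46.8 and 71.4 in myoblasts.

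The other 6 of the 10 highest-ranked members lay on chromosomes 6, 7, 11, 15 and 16. On chromosome 11 there were a pair, at 111964112 to 111965390, with percentiles of 51.5 and 67.2 in myotubes and 78.1 and 63.6 in myoblasts, and at 51140040 to 51141219, with 46.1 and 48.6 in myotubes and 81.9 and 67.2 in myoblasts. The chromosome 11 region at 111964112 had a siDRR replicate 2 peak 2551 bp away, while the nearest in replicate 1 was 365966 bp away. The chromosome 16 region (39109188 to 39110305) had percentiles of 47.0 and 61.3 in myotubes and 68.4 and 76.2 in myoblasts. The chromosome 15 region (73827232 to 73828459) had 66.0 and 39.0 in myotubes and 84.8 and 62.7 in myoblasts. Both were more than 50 kb from any siDRR peak: 55280 bp for chromosome 16 and 162863 bp for chromosome 15, in replicate 2 in each case. The chromosome 7 region (129613765 to 129614908) had 56.7 and 53.4 in myotubes and 75.9 and 65.3 in myoblasts, with a siDRR replicate 2 peak 3428 bp away. The chromosome 6 region (116367487 to 116369242) had 54.5 and 60.4 in myotubes and 72.2 and 62.5 in myoblasts, with a siDRR replicate 2 peak 4166 bp away. None of the 10 met the rule when lists were cut to equal length, and 6 did when the better-scoring 50% of each list was used. The cut to equal length kept 8384 of the 26765 peaks of myotube replicate 2. That removed the calls of all 10 in this list, where the highest of them stood at percentile 67.9. The outcome was thus fixed by the cut and says nothing of their siDRR calls.

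The width limit removed 19 regions of the same call pattern. The widest member, of 2947 bp, lay on chromosome 10 (115703196 to 115706142). It was followed by one of 2946 bp on chromosome 13 (51194833 to 51197778) and one of 2929 bp on chromosome X (11663461 to 11666389). Of the regions left out, the narrowest were a pair of 3054 bp on chromosome 2 (26932912 to 26935965) and chromosome X (11666491 to 11669544), then one of 3066 bp on chromosome 6 (134777916 to 134780981). Mean rank percentiles over the 4 lists were 20.0 to 52.1 for these 3 members and 24.9 to 43.5 for the 3 regions outside. The chromosome X member and the chromosome X region outside the limit are neighbours, and neither had a siDRR peak.

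Myotube and myoblast peaks of a member marked the same place. In 543 of the 544 regions the best peaks of all 4 lists shared at least 1 bp, with a median shared stretch of 795 bp, and 539 had exactly 1 peak in each of the 4 lists. The mean centre of the myotube peaks lay a median of 36.5 bp from that of the myoblast peaks. Members were 643 to 2947 bp wide, with a median of 1126 bp. Their single peaks had median widths of 990 and 892 bp in myotubes and 943 and 1071 bp in myoblasts, against 1211 and 1149 bp in myotubes and 1186 and 1314 bp in myoblasts for the regions of all 6 lists.

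Most members had no siDRR peak within 5 kb. A siDRR peak that overlapped a region would have taken it out of the set, so small shifts cannot appear in these distances. Whether peaks had shifted was not tested. The nearest peak of siDRR replicate 2 lay a median of 22949 bp away and that of replicate 1 a median of 59618.5 bp away. In 22 of 544 members a siDRR peak of either list lay within 1 kb, and in 83 within 5 kb. Another member lay within 20 kb of 12 members, and the median distance to the nearest other member was 1002070 bp. Of the 5067 regions called in 1 siDRR list, 873 had another of their set within 20 kb, with a median of 90039 bp. Such spacing depends on the size of a set, so it is a description only. A region of all 6 lists lay within 20 kb of 116 members (21.3%), against 20.2% of the regions called in 1 siDRR list. By chromosome, members made up 3.21% (chromosome 3) to 5.58% (chromosome 12) of the regions called in both myotube and both myoblast lists, and 12 of 250 (4.80%) on the X chromosome.

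ATAC-seq was not used in the choice and had fewer peaks at these sites than at the other SMC3 sets in each of the 6 libraries. An ATAC peak overlapped 98 and 209 of the 544 members in siDRR replicates 1 and 2, that is 18.0% (exact 95% interval 14.9% to 21.5%) and 38.4% (34.3% to 42.7%). In siSmc3 myotubes it overlapped 94 and 202 members, 17.3% (14.2% to 20.7%) and 37.1% (33.1% to 41.3%). In control myotubes it overlapped 83 and 160 members, 15.3% (12.3% to 18.6%) and 29.4% (25.6% to 33.4%). The intervals cover counting error alone. Replicate 2 libraries overlapped more members than replicate 1 libraries in all 3 groups. ATAC peaks in replicate 2 libraries only were found at 145 members (26.7%), and in replicate 1 libraries only at 22 (4.04%). The other sets had the same imbalance, at 31.7% and 2.92% of regions called in 1 siDRR list and 31.8% and 2.70% of regions of all 6 lists.

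Averaged over the 6 ATAC libraries, 25.9% of members were accessible, against 41.2% of regions called in 1 siDRR list and 45.6% of regions called in all 6 SMC3 lists. Against the regions of all 6 lists the members were lower by 10.4 to 27.8 percentage points in 6 of 6 libraries, with a mean difference of -19.7 points. A two-sided exact sign-flip permutation test over the 6 libraries gave p = 0.031, the smallest it can give. After Benjamini-Hochberg adjustment over 6 tests this p was 0.094, so the difference did not pass at 0.05. No difference here could pass, since tests over 4 libraries give at least 0.125 and tests of 2 against 2 libraries at least 0.333. The adjusted p therefore cannot decide whether the sets differ. Against regions called in 1 siDRR list the mean difference was -15.3 points, again lower in 6 of 6 libraries, with the same p of 0.031 and adjusted p of 0.094 in the exact permutation test. The test covers the spread between libraries and not the choice of regions.

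**Figure D3:**
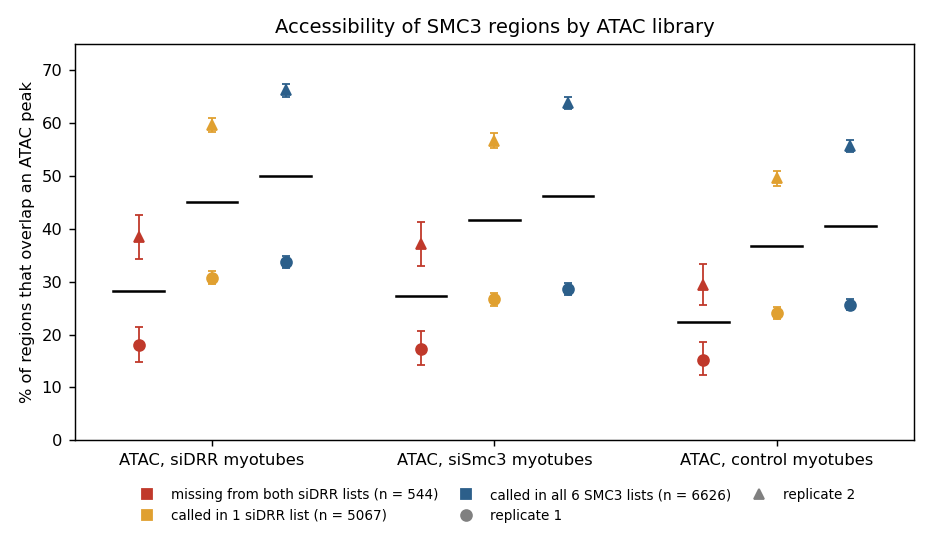
Share of regions that overlap an ATAC peak (y axis, %) in siDRR, siSmc3 and control myotubes, for each replicate (circle 1, triangle 2) with exact 95% intervals, and black bars for the mean of 2 libraries. Regions missing from both siDRR SMC3 lists (red) lie below both other sets in each of the 6 libraries.

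Among regions of all 6 lists, 35.7% were accessible in the lowest SMC3 rank band and 50.5% in the highest, so the sets were also compared within rank bands. Below percentile 20, 21.4% ± 8.34 of members were accessible, against 34.5% ± 13.0 of regions called in 1 siDRR list and 35.7% ± 12.6 of the 35 regions of all 6 lists (SD over 6 ATAC libraries). Between 20 and 40 the shares were 26.4% ± 12.2, 35.8% ± 13.5 and 34.8% ± 15.6 in the same order. In both bands members were lower in 6 of 6 libraries against either set. Between 40 and 60 the shares were 32.0% ± 10.8, 42.2% ± 15.8 and 41.1% ± 17.0, with members lower in 6 of 6 libraries against regions with 1 siDRR call and in 4 of 6 against regions of all 6 lists. The band from 60 to 80 held 11 members, too few to read. With the compared set weighted to the members' numbers in the bands, the mean difference from regions of all 6 lists was -10.5 points, and that from regions with 1 siDRR call was -10.8 points, both lower in size than without weighting.

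**Figure D4:**
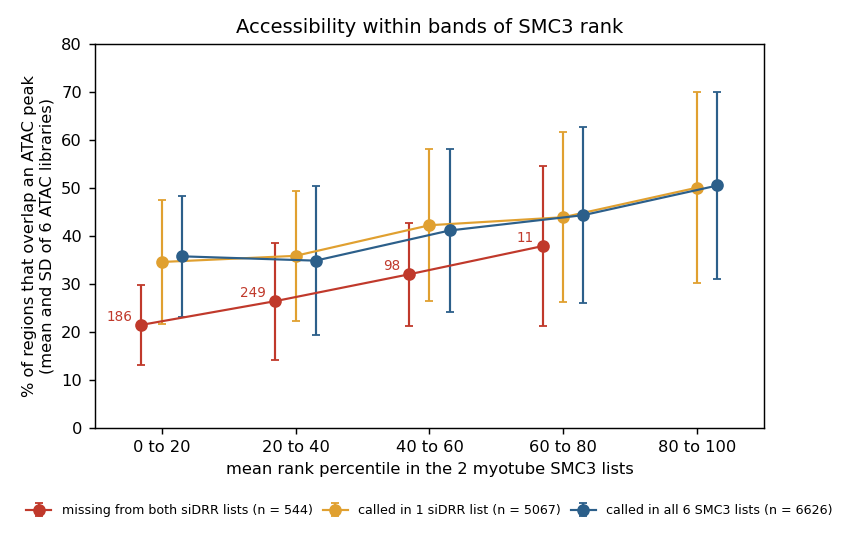
Share of regions that overlap an ATAC peak (y axis, %, mean and SD of 6 ATAC libraries) in bands of mean myotube SMC3 rank percentile (x axis), with the number of members beside the red points. Below percentile 40 the members (21.4% and 26.4%) lie under both other sets, and the band from 60 to 80 holds 11 members.

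The size of this difference depended on single SMC3 lists. Regions that met the rule except that myotube replicate 1 did not call them numbered 1581, and 46.5% ± 8.79 of them were accessible (SD over 6 ATAC libraries), against 25.9% ± 10.4 of the members. Their median width of 1151 bp was close to the 1126 bp of the members. Regions that met it except for myotube replicate 2 numbered 256 and had 23.8% ± 9.07. Regions that met it except for myoblast replicate 1 (74) had 47.7% ± 7.86, and those except for myoblast replicate 2 (84) had 26.6% ± 7.85. Regions called in siDRR replicate 1 only (74) had 23.6% ± 11.2, against 41.5% ± 16.0 for the 4993 called in siDRR replicate 2 only. Without myotube replicate 1 the difference of members from regions of all 6 lists was -4.39 points (p = 0.281 in the exact sign-flip permutation test), and without siDRR replicate 2 it was -5.41 points. Against regions called in 1 siDRR list it was -5.30 points without myotube replicate 1. With SMC3 lists of equal length the rule chose 86 regions anew. Their differences were -8.18 points from regions of all 6 lists and -6.59 points from regions with 1 siDRR call. For the 544 members, the difference from regions of all 6 lists was -12.4 points without ATAC replicate 2 and -26.9 points without ATAC replicate 1. What makes single SMC3 libraries differ in this way was not tested.

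Taken over all members, cover by ATAC peaks was highest at the centre of the SMC3 region, as in the other sets. Over the 6 libraries an ATAC peak covered the centre of 21.7% of members and the points 3 kb away in 3.40%, a ratio of 6.38. For regions called in 1 siDRR list the shares were 34.9% and 4.08%, and for regions of all 6 lists 38.0% and 3.95%, ratios of 8.55 and 9.62. At the centre, members were covered in 24.4% in siDRR, 22.4% in siSmc3 and 18.2% in control myotubes, as means of 2 libraries. A peak over the central base, a measure that does not use the width of a region, gave a difference of -16.3 points between members and regions of all 6 lists over the 6 libraries.

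**Figure D5:**
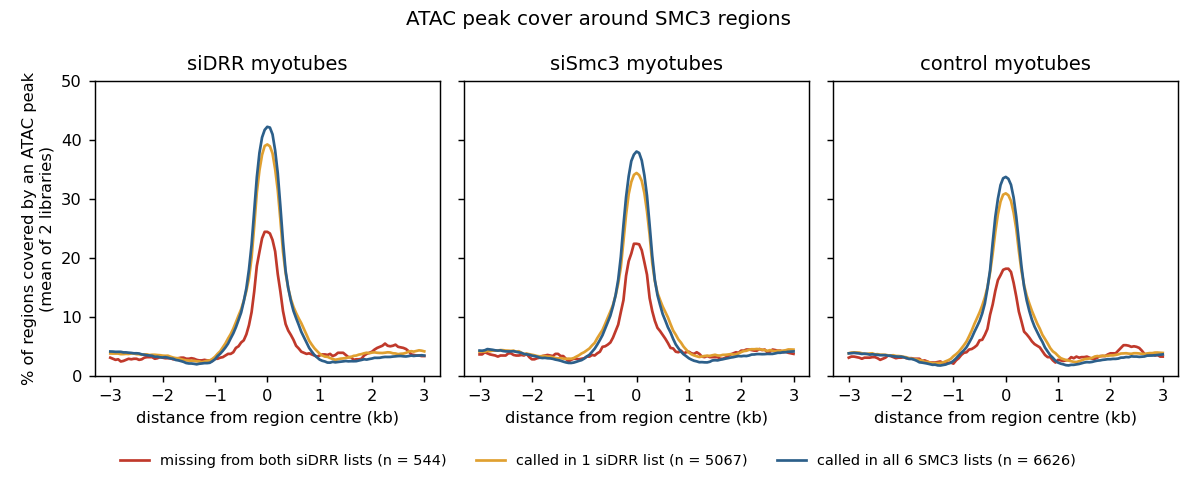
Share of regions covered by an ATAC peak (y axis, %, mean of 2 libraries) by distance from the centre of the SMC3 region (x axis, kb) in siDRR, siSmc3 and control myotubes. All 3 sets peak at the centre, where members reach 24.4%, 22.4% and 18.2%, and all fall to a similar low level within 3 kb.

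ATAC peaks were found at more members in the knockdowns than in the control. With the full ATAC lists these differences lay within the spread between libraries. The share of accessible members was 28.2% ± 14.4 in siDRR and 22.3% ± 10.0 in control myotubes (SD, n = 2 each), which is 5.88 points higher (two-sided exact permutation test, p = 0.667, where 0.333 is the smallest possible). In siSmc3 myotubes it was 27.2% ± 14.0 (SD, n = 2), 4.87 points above control, also with p = 0.667 in the exact permutation test. In replicate 1 the ATAC list held 69841 peaks for siDRR, 80897 for siSmc3 and 58138, the fewest of the 6, for control. In replicate 2 it held 98592 for siDRR, 103056 for siSmc3 and 99548 for control. With ATAC lists of equal length the differences were 3.125 points for siDRR and 2.76 points for siSmc3. Both siDRR libraries then lay above both control libraries, with p = 0.333 in the exact permutation test (0.4 adjusted), the smallest it can give. For siSmc3 the test did not reach that value. Within replicate 1 the differences from control were 2.76 points in siDRR and 2.02 points in siSmc3, and within replicate 2 they were 9.01 and 7.72 points. The other SMC3 sets moved the same way: regions of all 6 lists differed from control by 8.07 and 10.5 points under siDRR and by 2.99 and 8.10 points under siSmc3, in replicates 1 and 2. Whether members differ from those sets in this change was not tested.

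Few members changed their ATAC calls in both libraries of a knockdown. Of 68 members with an ATAC peak in both control libraries, 4 had none in either siDRR library (5.88%, exact 95% interval 1.63% to 14.4%), where the share over all ATAC regions of both controls was 5.85%. Under siSmc3 6 of the 68 had none (8.82%, 3.31% to 18.2%), against 8.21% over all ATAC regions. Both background shares lie within the members' intervals, as do the shares under siDRR and siSmc3 of regions called in 1 siDRR list (3.04% and 4.06%) and of regions of all 6 lists (2.01% and 3.82%). The siDRR and siSmc3 counts share their 2 control libraries, and the intervals cover counting error over regions, which are not replicates. Without myotube SMC3 replicate 1 in the rule, 11 of 610 members lost their peaks under siDRR (1.803%) and 16 of 610 under siSmc3 (2.62%). Without siDRR SMC3 replicate 2 these were 35 of 1145 (3.06%) and 47 of 1145 (4.10%).

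Of 369 members with no ATAC peak in either control library, 12 had one in both siDRR libraries (3.25%, 1.69% to 5.61%) and 13 in both siSmc3 libraries (3.52%, 1.89% to 5.95%). The shares were 5.54% under siDRR and 4.83% under siSmc3 for regions called in 1 siDRR list, and 6.77% and 6.55% for regions of all 6 lists. Those of all 6 lists lie above the members' intervals and those of 1 siDRR call within them. The intervals cover counting error over regions, which are not replicates, so this is no test between sets. Over all ATAC regions in neither control they were 2.08% and 3.09%, but each of those regions has a knockdown peak by construction, whereas 232 of the 369 members have no ATAC peak at all, so these shares cannot be set against each other. Among the 137 members with a peak in at least 1 knockdown library, 12 gained peaks under siDRR (8.76%, 4.61% to 14.8%) and 13 under siSmc3 (9.49%, 5.15% to 15.7%). On that count the regions of all 6 lists had 11.99% and 11.6%, and the regions with 1 siDRR call 10.8% and 9.47%, all within the members' intervals.

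The 4 members without ATAC peaks under siDRR had control peaks of low to middle rank. A chromosome 6 region (85288917 to 85290063) stood at ATAC percentiles of 27.7 and 61.3 in control replicates 1 and 2, and a chromosome 13 region (90962984 to 90964149) at 20.3 and 57.8. A chromosome 7 region (143028363 to 143029517) stood at 41.6 and 20.6, and a chromosome X region (155879864 to 155880835) at 21.2 and 29.1. The chromosome 13 region lacked ATAC peaks in all 4 knockdown libraries, while the chromosome 7 region had peaks in siSmc3 replicates 1 and 2, at 72.0 and 61.5. The chromosome 6 and chromosome X regions had a peak in siSmc3 replicate 2, at 65.3 and 45.4.

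Under siSmc3 the members without ATAC peaks were the chromosome 13 region and 5 others. A chromosome 14 region (35386946 to 35388279) had 18.1 in siDRR replicate 2, against 52.3 and 28.8 in control. Another on that chromosome (33285829 to 33286910) had 5.76 in siDRR replicate 2, against 43.7 and 31.5 in control. The chromosome 6 region (52209276 to 52211531) had 61.5 and 53.7 in siDRR replicates 1 and 2, against 42.1 and 34.9 in control replicates 1 and 2. The chromosome 4 region (63140643 to 63141963), second among the members by SMC3 rank, had 46.0 and 39.6 in siDRR and no peak in siSmc3, against 18.3 and 43.8 in control. The chromosome 11 region (84731512 to 84733476) had 65.2 in siDRR replicate 2, against 13.8 and 41.7 in control. Among these 6 members, the chromosome 6 and chromosome 4 regions thus had ATAC peaks in both siDRR libraries and in neither siSmc3 library.

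At the other end, 34 members had an ATAC peak in all 6 libraries (6.25%), while 232 had none in any (42.6%). Among regions of all 6 SMC3 lists these shares were 11.9% and 17.9%. The member with the highest-ranked ATAC peaks lay on chromosome 1 (84877356 to 84879435). These stood at 98.6 and 99.1 in siDRR, 99.2 and 99.6 in siSmc3, and 92.7 and 98.7 in control. Its SMC3 peaks ranked low in myotubes, at 3.56 and 15.0, and near the middle in myoblasts, at 52.2 and 52.0. The next, on chromosome 9 (113924535 to 113926355), had ATAC percentiles of 96.8 and 93.8 in siDRR, 99.1 and 98.6 in siSmc3, and 98.0 and 95.6 in control. The first 5 also took in a region of chromosome 2 (49305994 to 49308916), one of chromosome 8 (120966934 to 120969464) and one of chromosome 5 (106159664 to 106162199), at ATAC percentiles of 86.1 or higher in every library. These 5 sites, 1821 to 2923 bp wide, were strongly accessible in every condition, with mean SMC3 ranks between 28.7 and 41.7.

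DRR ChIRP summits, widened by 250 bp on each side, met few members. In pool 1 they met 2 members in replicate 1 and 25 in replicate 2, that is 0.368% (exact 95% interval 0.0446% to 1.32%) and 4.60% (2.996% to 6.71%). In pool 2 they met 16 and 11 members, 2.94% (1.69% to 4.73%) and 2.02% (1.01% to 3.59%). The pool 1 counts follow the lengths of the lists, which held 3776 and 68812 summits. Regions of all 6 SMC3 lists were met at 0.513% and 5.60% in pool 1 and 3.41% and 2.14% in pool 2. Members were lower in 4 of 4 ChIRP libraries, with a mean difference of -0.435 percentage points (p = 0.125 in the two-sided exact sign-flip permutation test, the smallest it can give, and 0.188 adjusted over 6 tests). Against regions called in 1 siDRR list the difference was -0.306 points, also with p = 0.125 in the exact permutation test. It was -0.139 points without myotube SMC3 replicate 1 (p = 0.625 in the exact permutation test) and -0.151 points without pool 1 replicate 2. Weighted to the members' rank bands, the difference from regions of all 6 lists was 0.607 points, in the opposite direction. The lowest band held 186 members but only 35 regions of all 6 lists, of which 1 met a ChIRP summit of any list. With the same weighting, the difference from regions with 1 siDRR call was -0.423 points. No direction can be read from these differences.

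In all, 44 members (8.09%) met a ChIRP summit of any list, against 9.04% of regions called in 1 siDRR list and 9.31% of regions of all 6 lists. Of the members 27 (4.96%) met one and also had an ATAC peak in at least 1 library, against 7.42% and 7.91% of those sets, and 2 members met summits of both pools. The first of these lay on chromosome 1 (35783148 to 35784196). It held ChIRP summits at rank percentiles of 91.0 in pool 1 replicate 2 and of 97.3 and 98.1 in pool 2, and no ATAC peak in any library. Its SMC3 percentiles were 25.3 and 9.39 in myotubes and 25.9 and 27.0 in myoblasts. The second, on chromosome 16 (92709594 to 92711458), had summits at 52.0 in pool 1 replicate 2 and at 60.3 in pool 2 replicate 1. It had ATAC peaks in all 6 libraries, at 90.5 and 94.2 in siDRR, 86.4 and 92.6 in siSmc3, and 76.4 and 91.9 in control. The share of members met by both pools was 0.368% (0.0446% to 1.32%), against 0.287% of regions of all 6 SMC3 lists. The LacZ probe and input libraries were not analysed here, so no background of the pull-down stands beside these values.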

How the data were processed

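Peak lists of 16 of the 26 samples were used. Each library has a list of its own, and none is a pooled call. The other 10 samples, inputs and LacZ controls, were not analysed here. Per the submitters' processing notes the build is mm9, and the tools named, without their roles, are MACS 1.4.2, MACS2, Bowtie2 2.2.4, Bowtie 1.1.1, cutadapt 1.12, bcl2fastq 2.17.1 and CASAVA 1.8.2. For the control library, filters, shift of ATAC reads and threshold, the setting is not given in the sources used here. Each deposited peak score is that of the authors' peak caller, on a scale not stated, and was used to rank peaks within a list. No list gives read counts, so depth is unknown. No genome or annotation of mm9 was used here, so regions are given by position, without genes or sequences.

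Starts were made 1-based, and peaks outside chromosomes 1 to 19 and X were left out. A region counted as called by a library where at least 1 bp of a peak lay in it, and took the rank of its best peak. The lists were no repeat deposits: at most 1.41% of the shorter list recurred exactly in another. Shares of regions per library were compared over libraries by exact permutation tests (scipy 1.17.1, Python 3.11.15), with Benjamini-Hochberg adjustment over 6 tests. Merging and calling recovered what simulated lists were made with, and both tests gave the known exact p-values of short made-up inputs. Named regions were the 10 members of highest mean SMC3 rank, the 5 of highest ATAC rank among those accessible in all 6 libraries, all met by both ChIRP pools, all without ATAC peaks in a knockdown, and the 3 on each side of the width limit. Members, tests and lists were chosen with earlier results of these data known. The weighting by rank band, the centre-base measure, the gains among members with a knockdown peak and the regions 1 call away from the rule were added after the values had been seen. Alternatives covered merging, width, list length, overlap, ChIRP width, single libraries and the replicate number.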

Additional observations from a re-analysis of the deposited data

How the results depend on the processing

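The number of regions that met the rule depended on the SMC3 lists, and each change of lists, merging or width chose its regions anew. It was 545 with a merging overlap of 50 bp, 563 with no width limit and 516 under 2000 bp, but 86 with lists of equal length and 327 with the better-scoring 50% of each list. Leaving out 1 SMC3 library gave 618 to 5542. In a replicate block, where calls are read by replicate number, the pattern within number 1 alone held for 6226 regions, within number 2 alone for 3355, and within both for 544. The numbers are shared in the labels, which name no common culture or day; the blocked differences of accessible members from control were the same 5.88 points under siDRR and 4.87 under siSmc3, with p = 0.5 in the exact sign-flip permutation test, the smallest it can give.

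Members were less often accessible than regions of all 6 lists under each of 18 alternatives, at -26.9 to -4.39 points. They were less often accessible than regions with 1 siDRR call under each of 16, at -20.3 to -5.30 points. No adjusted p passed at 0.05, and none could with these numbers of libraries. The siDRR and siSmc3 shares stayed at or above control in all alternatives, at a difference of 0 for siSmc3 with SMC3 lists of equal length, and at 3.125 (siDRR) and 2.76 points (siSmc3) with ATAC lists of equal length. The ChIRP difference from regions of all 6 lists turned to 0.607 points when weighted by rank band, while that from regions with 1 siDRR call was -0.423 points. Members that lost their ATAC peaks numbered 0 of 20 in each knockdown with SMC3 lists of equal length. With the better-scoring 50% of ATAC peaks they numbered 2 of 35 under siDRR and 1 of 35 under siSmc3. Leaving out 1 SMC3 library gave between 4 and 35 for siDRR and between 8 and 47 for siSmc3. The members with peaks in both controls then numbered 76 to 1145. As shares of these, losses were 1.803% to 7.89% under siDRR, against 5.88% in the main setting. Under siSmc3 they were 2.62% to 11.8%, against 8.82%. The highest counts, 35 and 47 of 1145, were shares of 3.06% and 4.10%, below those of the main setting. The cause of these changes was not tested. With 2 libraries a group and no read counts, a missing call shows neither absence of SMC3 nor its level.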
